A study of Mus musculus with 12 samples.

Results

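The genes described here are 39 mouse genes of nucleotide synthesis, serine synthesis, folate metabolism and the methionine cycle. They were taken by gene name from a list, and all 39 were found among the 52015 genes of the deposited expression values. They comprise 13 genes of purine synthesis, 6 of purine salvage and interconversion, 6 of pyrimidine metabolism, 2 nucleoside diphosphate kinases, 5 folate enzymes, 3 serine synthesis enzymes and 4 genes of the methionine cycle.

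RNA-seq was performed on 12 cultures of mpkCCD cells, a mouse line of the cortical collecting duct of the kidney, to compare cells with and without the osmosensitive transcription factor NFAT5 at normal and raised osmolality. Scr_300 and Scr_600 (2 libraries each) are cells transduced with a scramble, non-targeting guide RNA, and Nfat5-KO_300 and Nfat5-KO_600 (4 libraries each) come from the CRISPR/Cas9 knockout clones N1 and N3. The suffix is the osmolality: 300 mosmol/kg is isotonic medium, and 600 mosmol/kg is hypertonic medium with 100 mM NaCl and 100 mM urea added, each for 5 days. The deposited values are FPKM (fragments scaled by exon length and by the mapped fragments of the library), with a single value per gene for each group. Differences between the libraries of a group, or between clones N1 and N3, therefore cannot be seen, no test was possible, and none of the differences below has a replicate check.

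Purines and pyrimidines are the bases of RNA, DNA and the energy carriers ATP and GTP. Cells assemble them either de novo, on ribose phosphate for purines and from carbamoyl phosphate and aspartate for pyrimidines, or by salvage of bases and nucleosides. Serine made from glycolytic intermediates gives up carbon units to folate, and the folate cycle in cytosol and mitochondria passes them on to the purine ring, to thymidylate and to the methionine cycle, where S-adenosylmethionine is made. In the kidney medulla, high NaCl and urea are the normal surroundings of collecting duct cells, and NFAT5 drives the accumulation of osmolytes there.

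Every difference is expressed as the log2 ratio of FPKM + 0.1 in both groups, a scale on which the change of low genes is somewhat understated. A gene was compared where at least 1 of both groups had 0.5 FPKM or more, and it is called higher or lower where the groups differed at least 1.5-fold (0.585 on the log2 scale), with 2-fold as a stricter limit. Each of the 39 members reached 0.5 FPKM in every comparison. FPKM is already divided by exon length, so that levels can be set side by side between genes.

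Levels of the 39 members ranged from 0.509 FPKM for Nme2 to 202 FPKM for Phgdh. The most abundant were Phgdh and Psat1 of serine synthesis, Paics of purine synthesis, Shmt2 of mitochondrial folate metabolism and Ahcy of the methionine cycle. Summed over the members, FPKM was 1387 in Scr_300, 1283 in Scr_600, 1455 in Nfat5-KO_300 and 1036 in Nfat5-KO_600. The group with the lowest level was Nfat5-KO_600 for 27 of 39 members (69.2%), against 32.8% of the 13414 genes with 0.5 FPKM in a group. The group with the highest level was Nfat5-KO_300 for 20 of 39 members (51.3%), against 25.9% of those genes. These counts depend on the scale: with every column rescaled to a sum of 1000000, Nfat5-KO_600 was lowest for 14 of 39 members (35.9%, against 18.5% of genes) and Nfat5-KO_300 highest for 17 (43.6%, against 17.8% of genes). In bulk RNA, less RNA per cell and fewer cells that hold it cannot be told apart.

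**Figure D1:**
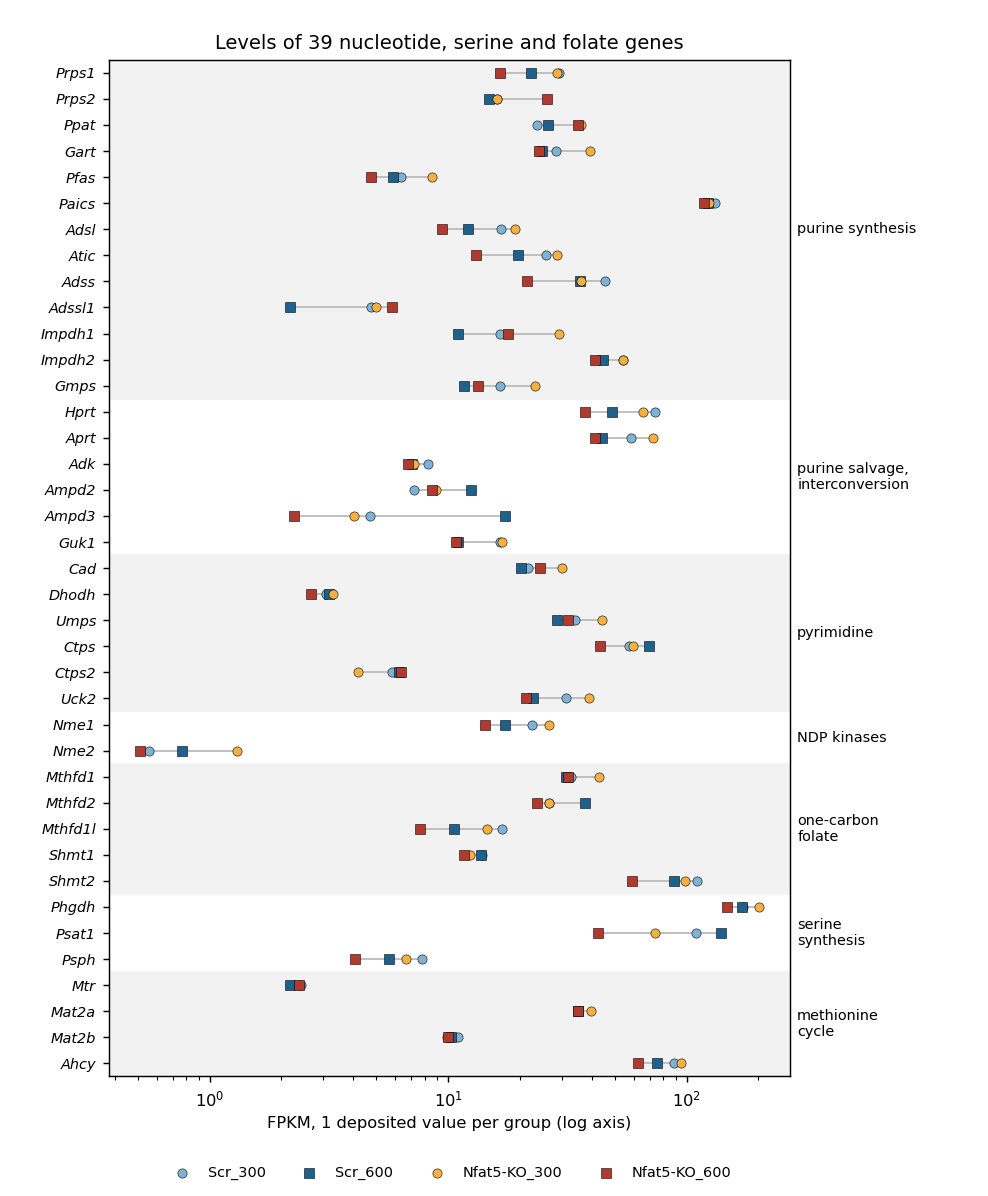
FPKM of each of the 39 genes on a log axis, with 1 point per group (circles for 300 mosmol/kg, squares for 600 mosmol/kg, blue for Scr, orange and red for Nfat5-KO) and a line joining the lowest and highest. The red squares of Nfat5-KO_600 are the lowest point for 27 of 39 genes on the deposited values drawn here (14 of 39 on columns rescaled to an equal sum), and the widest lines belong to Ampd3 and Psat1.

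Some reads of these genes cannot be assigned with certainty. The library type does not mark the strand, and in GENCODE M21 (GRCm38) 16 of 39 members share exon bases with another gene. The share of exon bases was largest for Nme2 (48.9%, with the readthrough gene Gm20390, which is listed at 0 in all groups) and exceeded 20% for no other member. Near-identical copies elsewhere in the genome, at 90% identity or more over at least 200 bases, were found for 8 members, and for 5 of these (Prps1, Impdh2, Nme2, Phgdh and Ahcy) a copy had 1 FPKM or more in a group.

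As a check of the samples, Nfat5 itself was measured at 5.61 FPKM in Scr_300, 7.93 in Scr_600, 3.47 in Nfat5-KO_300 and 6.88 in Nfat5-KO_600. Knockout against Scr, this was a log2 ratio of -0.68 in isotonic and -0.20 in hypertonic medium. These values are taken over all exons and do not show whether the edited site disrupts the protein. Epithelial markers (Epcam, Cdh1, Krt8 and Krt18) were high in every group, with summed FPKM of 952 to 1492. The defining markers of principal cells were low: Aqp2, the vasopressin-regulated water channel, was at most 0.245 FPKM and Avpr2, the vasopressin receptor, at most 0.0193 FPKM. Among the 13 principal cell markers, 5 reached 0.5 FPKM, and the sum of all 13 was 10.1 FPKM in Scr_300, 9.64 in Scr_600, 20.7 in Nfat5-KO_300 and 47.0 in Nfat5-KO_600. Gata3 was the largest single part in each group, at 3.41, 4.33, 11.8 and 30.0 FPKM in that order. The others of the 5 were Scnn1a (1.31 to 7.03 FPKM), Aqp3 (2.07 to 2.93), Hsd11b2 (0.383 to 6.18) and Kcnj1 (at most 0.725). The part of these marker differences in the results below was not tested. Markers of intercalated cells, thick ascending limb, fibroblasts and endothelium stayed under 0.5 FPKM in every group. Among proximal tubule markers Lrp2 alone passed that level, at 1.07 FPKM in Nfat5-KO_600, and among leukocyte markers Cd68 alone, at 1.41 to 2.62 FPKM.

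A short look at promoter sequence serves to show what the members share besides their function. Windows of 300 bases around RefSeq transcription starts (250 before and 50 after, GRCm38.p6) were matched for 37 of 39 members, all but Pfas and Dhodh, and searched on both strands. The E-box CACGTG, which reads the same on both strands and is bound by MYC, MAX and related factors, was found in 5 of 37 members (13.5%), against 8.09% of 27025 genes. The core of the amino acid response element, TGATGNAA, to which ATF4 binds, was found in 1 of 37 members (2.70%), against 4.51% of genes. The TonE consensus, the element bound by NFAT5, was found in none of the 37, against 5.74% of genes. With so few members these shares are a description, and none of the matches overlapped another. The matches are printed because they are the only ones among the 37 genes, 5′ to 3′ on the strand of the gene, with the motif in capitals and 10 bases on either side:
Ampd3, chr7:110772516-110772541 (+): agcagtgggtCACGTGtcagctctgt
Atic, chr1:71557139-71557164 (+): acctcggggtCACGTGgggtcgacac
Impdh2, chr9:108560316-108560341 (+): gctcgataagCACGTGgttacccagc
Nme1, chr11:93968039-93968064 (-): cttgatacgcCACGTGggctcgcctt
Nme1, chr11:93968275-93968300 (-): tgcggggaacCACGTGaggccgggga
Paics, chr5:76951089-76951114 (+): cctcggaaagCACGTGgagggacctg
Prps1, chrX:140456423-140456450 (+): gctatctttgTGATGTAAaaagtgcttt
The first 6 hold the E-box and the last, of Prps1, the amino acid response element core. Counted from the transcription start, with -1 the base just before it, the E-box begins at -78 at 1 of the 3 start sites of Ampd3, at -7 in Atic, at -110 in Impdh2, at -29 and -18 at separate start sites of Nme1, and at -203 in Paics, inside an exon of the neighbouring gene Ppat. The match of Prps1 begins at -170.

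Under isotonic conditions, few members differed between the genotypes. Nfat5-KO_300 had 3 members at least 1.5-fold higher than Scr_300, where 5.27% of the 12704 genes compared were higher, and 0 members lower, where 6.21% of genes were lower. At 2-fold, 1 member was higher (1.73% of genes) and 0 were lower (2.44% of genes). The median of the members was 0.06, against 0.00 for all genes compared. The 3 members were Impdh1 (0.82), Ppat (0.62) and Nme2 (1.09), of which Nme2 is uncertain. A count of 3 among 39 (7.69%) is close to the share of all genes.

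Under hypertonic conditions, the knockout differed from Scr in both directions. Nfat5-KO_600 had 3 members higher than Scr_600, where 9.84% of the 13063 genes compared were higher, and 5 members lower, where 9.44% of genes were lower. At 2-fold, 1 member was higher (3.76% of genes) and 2 were lower (3.68% of genes). The lower members were Ampd3 (-2.88), Psat1 (-1.71), Adss (-0.74), Ctps (-0.68) and Mthfd2 (-0.67). The higher members were Adssl1 (1.37), Prps2 (0.80) and Impdh1 (0.68). Shares of 7.69% higher and 12.8% lower among the members lie near those of all genes, while the members' median was -0.20 against -0.02, and 29 of 39 lay below 0 (74.4%, against 52.2% of genes). With the columns rescaled to an equal sum of 1000000, 14.7% of genes were higher and 7.25% lower, and the members had 3 higher and 3 lower (Ampd3, Psat1 and Adss), with a median of -0.07 and 20 of 39 below 0 (51.3%, against 38.9% of genes).

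In Scr cells, the change of medium moved few members past the limit. Scr_600 had 2 members higher than Scr_300 (10.4% of 12929 genes) and 3 lower (9.01% of genes). At 2-fold, 1 member was higher (4.81% of genes) and 1 lower (2.86% of genes). Ampd3 (1.86) and Ampd2 (0.78), both AMP deaminases, were higher, and Adssl1 (-1.09), Mthfd1l (-0.68) and Hprt (-0.59) were lower. The median of the members was -0.20, against -0.04 for all genes, with 29 of 39 members below 0 (74.4%, against 54.6% of genes). On columns rescaled to an equal sum, 14.4% of genes were higher and 6.49% lower, with 3 members higher (Mthfd2 joining at 0.63) and 1 lower (Adssl1), and the members' median was -0.07 with 21 of 39 below 0 (53.8%, against 40.5% of genes).

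In Nfat5-KO cells, the same change of medium moved about as many members past the limit as stayed within it. Nfat5-KO_600 had 20 members lower than Nfat5-KO_300 (51.3%, against 13.8% of 12982 genes) and 1 member higher (2.56%, against 14.1% of genes). At 2-fold, 2 members were lower (4.11% of genes) and 0 were higher (6.25% of genes). The median of the members was -0.60, against -0.04 for all genes, and 34 of 39 lay below 0 (87.2%, against 52.9% of genes). Most of the 20 were thus moderate differences between 1.5-fold and 2-fold. This count depends on the scale: the FPKM of all genes used summed to 212247 in Nfat5-KO_600 and 251080.0 in Nfat5-KO_300, and with every column rescaled to a sum of 1000000, the median of all genes moved by 0.24. On that scale 7 members were lower and 2 higher (Prps2 and Ctps2), against 7.12% of genes lower and 24.8% higher, and the members' median was -0.36 against 0.20, with 27 of 39 below 0 (69.2%, against 34.6% of genes). The members called lower on both scales were Nme2, Atic, Adsl, Mthfd1l, Nme1, Uck2 and Pfas. Of these, Nme2 (0.509 to 1.30 FPKM) is uncertain on its own, and its sum with 2 copies had a log2 ratio of -1.19.

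Set against each other, the response in Nfat5-KO cells was below that in Scr cells for 32 of 39 members (82.1%, against 52.0% of genes). The difference of both log2 responses had a median of -0.32 over the members and -0.01 over 13414 genes. It reached the 1.5-fold limit downwards for 8 members (8.75% of genes) and upwards for 2 (9.48% of genes). The 8 were Ampd3 (-2.66), Nme2 (-1.59), Psat1 (-1.13), Ampd2 (-0.84), Ctps (-0.74), Atic (-0.73), Pfas (-0.72) and Mthfd2 (-0.67), and the 2 were Adssl1 (1.31) and Prps2 (0.81). The value of Nme2 is uncertain, since its sum with 2 copies had responses of -0.39 in Scr and -1.19 in the knockout. On rescaled columns, where 13.9% of genes were higher and 6.81% lower, 3 members were higher and 7 lower, with a median of -0.22 and 30 of 39 below 0 (76.9%, against 40.3% of genes). Each of the 4 groups enters more than 1 comparison, so that the comparisons are not independent of each other.

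**Figure D2:**
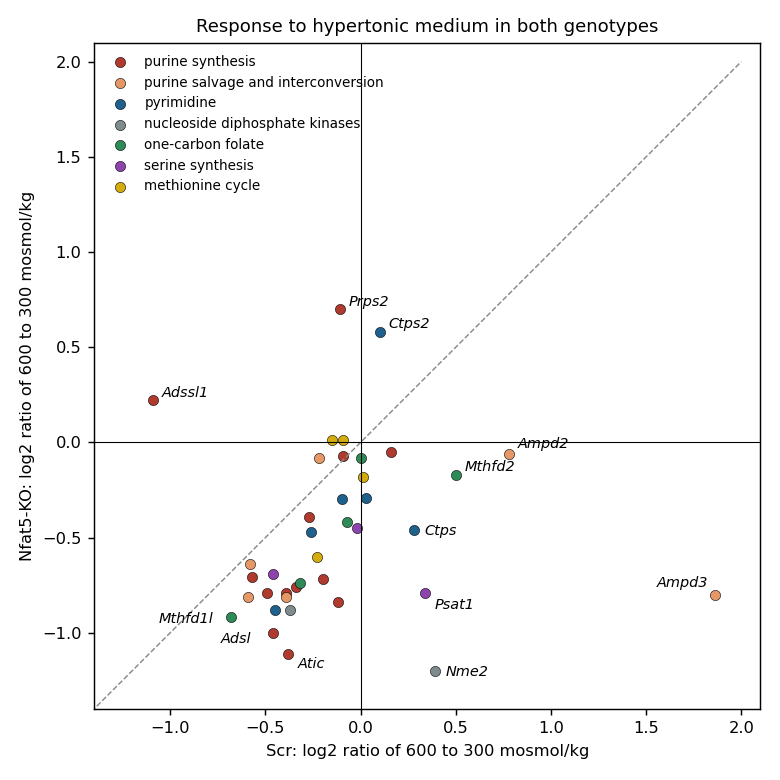
Log2 ratio of 600 to 300 mosmol/kg for each of the 39 genes, in Scr cells on the horizontal axis and in Nfat5-KO cells on the vertical axis, coloured by pathway branch, with the dashed line marking equal responses. Of the 39 points, 32 lie below the line, with Ampd3 (1.86 and -0.80) farthest from it, and Adssl1, Prps2 and Ctps2 are the farthest above it.

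**Figure D3:**
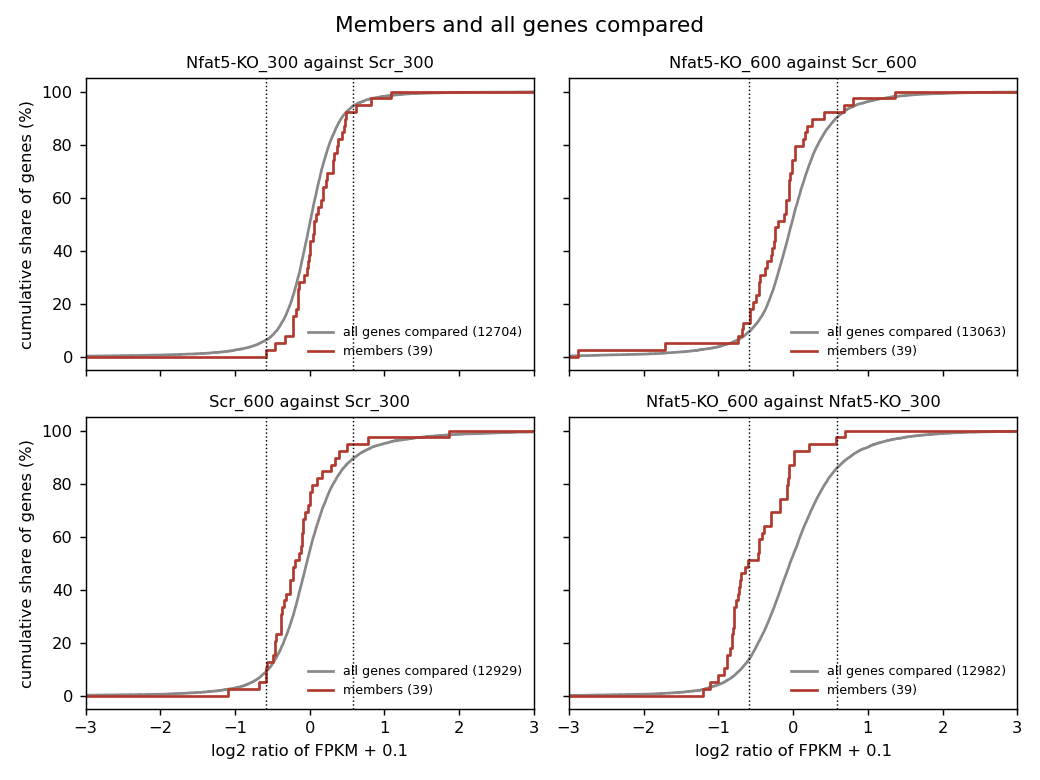
Cumulative share of genes (%) against the log2 ratio of FPKM + 0.1, for the 39 members (red) and all genes compared (grey) in the 4 comparisons, with dotted lines at the 1.5-fold limits. The red curve runs left of the grey one over most of its length in Nfat5-KO_600 against Nfat5-KO_300, where the medians are -0.60 and -0.04, and close to it in Nfat5-KO_300 against Scr_300, where they are 0.06 and 0.00.

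De novo purine synthesis begins with phosphoribosyl pyrophosphate, made by the synthetases Prps1 and Prps2, which showed opposite differences. Prps1 was measured at 29.3 FPKM in Scr_300, 22.3 in Scr_600, 28.5 in Nfat5-KO_300 and 16.5 in Nfat5-KO_600, so that both hypertonic groups were below both isotonic ones. Prps2 stood at 16.1, 14.9, 16.0 and 26.1 FPKM in the same order, with Nfat5-KO_600 alone above the rest. The Prps2 share of the summed pair was 35.5% in Scr_300, 40.0% in Scr_600, 35.9% in Nfat5-KO_300 and 61.3% in Nfat5-KO_600. The hypertonic log2 response in the knockout was -0.79 for Prps1 and 0.70 for Prps2. The value of Prps1 is uncertain, since its copy Prps1l3 (92.9% identity over the aligned part) was at 25.7 to 30.3 FPKM, and the sum of both gave a response of -0.41.

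The committed step is catalysed by Ppat, the amidophosphoribosyltransferase. Ppat was at 23.5 FPKM in Scr_300, 26.2 in Scr_600, 36.2 in Nfat5-KO_300 and 35.0 in Nfat5-KO_600. Both knockout groups were thus above both Scr groups, by 0.62 in isotonic and 0.41 in hypertonic medium on the log2 scale. Ppat lies head to head with Paics, whose enzyme joins carbon dioxide and aspartate to the growing ring. Ppat is on the minus strand at chr5:76913249-76951578 and Paics on the plus strand at chr5:76951307-76967509 (GRCm38), and their ends overlap by 272 bases. Paics was nearly level over the groups, at 131, 123, 124 and 118 FPKM in the order Scr_300, Scr_600, Nfat5-KO_300 and Nfat5-KO_600. Its log2 ratios lay between -0.09 and -0.06 in all 4 comparisons, so that the difference between genotypes measured for Ppat was not measured for its neighbour. The shared 272 bases are 6.15% of the exon bases of Ppat and 8.67% of those of Paics.

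Of the enzymes that build the ring, Gart, Pfas, Adsl and Atic were highest in Nfat5-KO_300 and lowest in Nfat5-KO_600 on the deposited values, unlike Paics. On rescaled columns Gart in Nfat5-KO_600 was 0.08 (log2) above Scr_600. Gart, the trifunctional enzyme that takes up a formyl group from folate, was at 28.4 FPKM in Scr_300, 24.8 in Scr_600, 39.5 in Nfat5-KO_300 and 24.0 in Nfat5-KO_600. Pfas, the synthase that adds a nitrogen from glutamine, was at 6.37, 5.85, 8.59 and 4.74 FPKM in that order. Adsl, the lyase that also serves AMP synthesis, was at 16.7, 12.1, 19.0 and 9.47 FPKM. The log2 response to hypertonic medium in the knockout was -0.72 for Gart, -0.84 for Pfas and -1.0 for Adsl. In Scr cells it was -0.20, -0.12 and -0.46, within the limit for each. Atic, which takes up the second formyl group and closes the ring, was at 25.7 FPKM in Scr_300, 19.7 in Scr_600, 28.5 in Nfat5-KO_300 and 13.1 in Nfat5-KO_600. Its response of -1.11 in the knockout was the lowest of the purine synthesis genes, against -0.38 in Scr.

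Downstream of IMP the path splits towards AMP and GMP. Adss, the main adenylosuccinate synthetase of the AMP branch, was at 45.4 FPKM in Scr_300, 35.9 in Scr_600, 36.2 in Nfat5-KO_300 and 21.4 in Nfat5-KO_600. Its muscle-type relative Adssl1 was far lower, at 4.77, 2.18, 4.97 and 5.80 FPKM, and followed another order. Hypertonic medium gave a log2 ratio of -1.09 for Adssl1 in Scr and 0.22 in the knockout, so that at 600 mosmol/kg the knockout was above Scr by 1.37. Adssl1 made up 5.73% of the pair in Scr_600 and 21.3% in Nfat5-KO_600. The GMP branch begins with the IMP dehydrogenases. Impdh1 was at 16.5 FPKM in Scr_300, 11.0 in Scr_600, 29.1 in Nfat5-KO_300 and 17.8 in Nfat5-KO_600, above Scr in the knockout at either osmolality (0.82 and 0.68). Impdh2, the major isoform here, differed little between genotypes, at 54.0, 44.8, 54.2 and 41.3 FPKM. The Impdh2 share of the pair was 76.6% in Scr_300 and 65.1% in Nfat5-KO_300. Impdh2 has a processed copy of 99.7% identity, Impdh2-ps, listed at 34.4 to 46.6 FPKM, so the true division between gene and copy is not known, and the log2 ratios of the copy (-0.43 to -0.01) were close to those of the gene (-0.39 to 0.00). Gmps, which makes GMP, was at 16.5, 11.7, 23.1 and 13.4 FPKM, with a log2 response of -0.49 in Scr, within the limit, and of -0.79 in the knockout. The summed FPKM of all 13 purine synthesis genes was 414 in Scr_300, 355 in Scr_600, 448 in Nfat5-KO_300 and 346 in Nfat5-KO_600.

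Of the 13 purine synthesis genes, 8 were lower and 1 higher in Nfat5-KO_600 than in Nfat5-KO_300, beside 13.8% and 14.1% of all genes, and their median log2 ratio was -0.72. On rescaled columns 3 of 13 were lower (Pfas, Adsl and Atic) and 1 higher, beside 7.12% and 24.8% of all genes, with a median of -0.48. For Scr, 1 of 13 was lower and 0 higher, beside 9.01% and 10.4% of all genes, with a median of -0.34. Between genotypes at 300 mosmol/kg, 2 of 13 were higher and 0 lower, beside 5.27% and 6.21% of all genes. At 600 mosmol/kg, 3 were higher and 1 lower, beside 9.84% and 9.44% of all genes. On rescaled columns the counts between genotypes were the same, beside 6.05% and 6.41% of all genes at 300 mosmol/kg and 14.7% and 7.25% at 600 mosmol/kg.

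**Figure D4:**
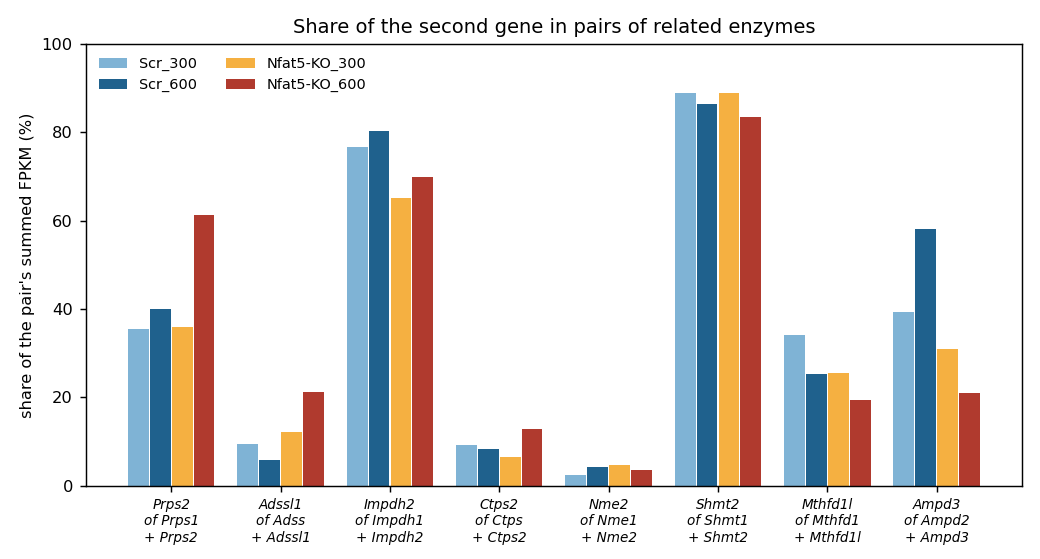
Share of the second gene in the summed FPKM of 8 pairs of related enzymes, in percent, with 1 bar per group and no error bars because each group has a single value. Prps2 takes 61.3% of its pair in Nfat5-KO_600 and 35.5% to 40.0% in the other groups, while Ampd3 takes 58.0% in Scr_600 and 20.9% to 39.4% elsewhere. Near-identical copies of Prps1, Impdh2 and Nme2 are not counted, so that the shares of these pairs are uncertain. Summed with its copy, Prps1 was at 44.3 FPKM in Nfat5-KO_600, against 26.1 for Prps2.

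Among the salvage and interconversion genes, the AMP deaminases stood apart. Ampd3, an AMP deaminase that converts AMP to IMP, lies at chr7:110768206-110812405 on the plus strand, and was measured at 4.69 FPKM in Scr_300, 17.3 in Scr_600, 4.02 in Nfat5-KO_300 and 2.26 in Nfat5-KO_600. It was thus high only in Scr_600, with a 7.63-fold range from the highest to the lowest group, the widest of the 39 members. Its log2 response to hypertonic medium was 1.86 in Scr and -0.80 in the knockout. Exon bases shared with other genes came to 8.42% of the total, and the genes on the opposite strand had lower levels than Ampd3 in Scr_600 (Rnf141 at 4.02 FPKM and B430319F04Rik at 0.20 FPKM). In the other groups Rnf141 was above Ampd3, at 4.83 FPKM in Scr_300, 4.54 in Nfat5-KO_300 and 3.17 in Nfat5-KO_600. Ampd2, the isoform common to most tissues, moved in the same direction in Scr cells and not in the knockout, at 7.22, 12.5, 8.94 and 8.57 FPKM in the order Scr_300, Scr_600, Nfat5-KO_300 and Nfat5-KO_600. Its log2 responses were 0.78 and -0.06. Ampd3 made up 39.4% of the pair in Scr_300, 58.0% in Scr_600, 31.0% in Nfat5-KO_300 and 20.9% in Nfat5-KO_600.

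The phosphoribosyltransferases of purine salvage passed the limit in the knockout response on the deposited values and not on rescaled columns (-0.56 for Hprt and -0.57 for Aprt). Hprt, which salvages hypoxanthine and guanine, was at 73.4 FPKM in Scr_300, 48.7 in Scr_600, 65.5 in Nfat5-KO_300 and 37.4 in Nfat5-KO_600. Its log2 response was -0.59 in Scr and -0.81 in the knockout. Aprt, which salvages adenine, was at 58.2, 44.4, 72.4 and 41.4 FPKM, with responses of -0.39 and -0.81. The guanylate kinase Guk1, at 16.5, 11.0, 16.9 and 10.8 FPKM, was as low in Scr_600 as in Nfat5-KO_600, and its responses were -0.58 and -0.64, close to the limit on either side. Adenosine kinase, Adk, was nearly flat at 8.23, 7.03, 7.21 and 6.81 FPKM. Summed over the 6 genes, FPKM was 168, 141, 175 and 107, and 4 of 6 were lower in the knockout response, beside 13.8% of all genes. On rescaled columns 0 of 6 were lower there.

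The pyrimidine genes differed less. Cad, the trifunctional enzyme that starts the pathway, was at 21.7 FPKM in Scr_300, 20.3 in Scr_600, 30.0 in Nfat5-KO_300 and 24.3 in Nfat5-KO_600, and the enzyme that makes UMP, Umps, was at 34.2, 28.5, 44.2 and 31.9 FPKM. Both were highest in Nfat5-KO_300, with log2 ratios to Scr_300 of 0.46 and 0.37 that stayed within the limit. Dhodh, the mitochondrial dehydrogenase between them, was low and even at 3.09, 3.16, 3.28 and 2.66 FPKM. Ctps, the CTP synthase, was at 57.1, 69.4, 59.6 and 43.3 FPKM, highest in Scr_600 and lowest in Nfat5-KO_600. Knockout and Scr differed by 0.06 (log2) in isotonic and by -0.68 in hypertonic medium. Its relative Ctps2 was at 5.80, 6.23, 4.20 and 6.34 FPKM, lowest in Nfat5-KO_300, with a knockout response of 0.58 just under the limit. Uck2, the uridine-cytidine kinase of salvage, was at 31.2, 22.8, 39.1 and 21.2 FPKM, with responses of -0.45 in Scr and -0.88 in the knockout. Of the 6 genes, Uck2 alone was called lower in the knockout response (16.7%, against 13.8% of all genes). Ctps alone was called between genotypes at 600 mosmol/kg, as lower (16.7%, against 9.44% of all genes). On rescaled columns Ctps was within the limit there (-0.55), and Ctps2 was called higher in the knockout response (0.83).

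The nucleoside diphosphate kinases turn diphosphates into triphosphates. Nme1 was at 22.4 FPKM in Scr_300, 17.3 in Scr_600, 26.4 in Nfat5-KO_300 and 14.3 in Nfat5-KO_600, with log2 responses of -0.37 and -0.88. Nme2 was listed at only 0.558, 0.764, 1.30 and 0.509 FPKM, while its processed copies Gm7730 (97.8% identity) and Gm5425 (97.6%) stood at 17.4 to 38.8 and 5.86 to 18.4 FPKM. Summed with both copies, Nme2 came to 47.8 FPKM in Scr_300, 36.5 in Scr_600, 56.0 in Nfat5-KO_300 and 24.5 in Nfat5-KO_600. The sum had a log2 ratio of 0.23 between genotypes at 300 mosmol/kg, where Nme2 alone had 1.09, and of -1.19 in the knockout response, where Nme2 alone had -1.20. The Scr response was 0.39 for Nme2 alone and -0.39 for the sum.

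Serine is made from phosphoglycerate in 3 steps. Phgdh, the dehydrogenase of the first step, was at 173 FPKM in Scr_300, 170.5 in Scr_600, 202 in Nfat5-KO_300 and 148 in Nfat5-KO_600, within the limit in every comparison. Its copy Gm7901 (98.7% identity) was at 4.58 to 5.88 FPKM. Psat1, the aminotransferase of the second step (chr19:15904678-15947337, minus strand), was at 109.6, 139, 73.4 and 42.4 FPKM, so that both knockout groups were below both Scr groups. Against Scr, the knockout gave a log2 ratio of -0.58 in isotonic medium, just under the limit, and of -1.71 in hypertonic medium, and its response to hypertonic medium was 0.34 in Scr and -0.79 in the knockout. Psph, the phosphatase of the last step, was at 7.80, 5.64, 6.63 and 4.07 FPKM, with responses of -0.46 in Scr, within the limit, and -0.69 in the knockout (-0.34 and -0.46 on rescaled columns). Its exons share 10.4% of their bases with Cct6a on the opposite strand, a gene at 213 FPKM in Scr_300, 152 in Scr_600, 225 in Nfat5-KO_300 and 127 in Nfat5-KO_600. Side by side at 600 mosmol/kg, the log2 ratio of knockout to Scr was -0.20 for the first step, -1.71 for the second and -0.46 for the last.

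The folate enzymes comprise mitochondrial and cytosolic members. Shmt2, the mitochondrial hydroxymethyltransferase that passes a carbon from serine to folate, was at 111 FPKM in Scr_300, 88.5 in Scr_600, 98.9 in Nfat5-KO_300 and 59.1 in Nfat5-KO_600, with log2 responses of -0.32 in Scr and -0.74 in the knockout. Mthfd2, the mitochondrial dehydrogenase and cyclohydrolase, was at 26.6, 37.6, 26.5 and 23.5 FPKM, level between genotypes at 300 mosmol/kg and lower in the knockout at 600 mosmol/kg, with a log2 ratio of -0.67. Mthfd1l, which releases mitochondrial formate, was at 16.9, 10.6, 14.6 and 7.63 FPKM, with responses of -0.68 and -0.92. In the cytosol, Shmt1 was nearly flat at 13.9, 13.8, 12.4 and 11.7 FPKM. Like the mitochondrial genes it was lowest in Nfat5-KO_600 on the deposited values. Mthfd1, the trifunctional cytosolic enzyme, was at 32.8, 31.2, 42.8 and 31.9 FPKM, highest in Nfat5-KO_300 with a log2 ratio to Scr_300 of 0.38. Mthfd2 and Psat1 were both highest in Scr_600 and lowest in Nfat5-KO_600 on the deposited values. On rescaled columns the knockout response was 0.07 for Mthfd2 and 0.16 for Shmt1, so that Nfat5-KO_600 was not the lowest group for these genes.

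In the methionine cycle, 3 of 4 genes were nearly level over the groups. Mtr, the methionine synthase that takes its carbon from folate, was at 2.41, 2.17, 2.36 and 2.38 FPKM in the order Scr_300, Scr_600, Nfat5-KO_300 and Nfat5-KO_600. The catalytic subunit Mat2a, of the enzyme that makes S-adenosylmethionine, was at 34.9, 35.2, 39.6 and 34.9 FPKM, and the regulatory subunit Mat2b at 11.0, 10.3, 9.92 and 10.0 FPKM. Across the 4 comparisons their log2 ratios lay between -0.18 and 0.18. On rescaled columns Mtr and Mat2b were both at 0.25 in the knockout response. Ahcy, the hydrolase that clears S-adenosylhomocysteine, was the exception at 88.2, 75.0, 95.0 and 62.6 FPKM, with a knockout response of -0.60. That response was -0.36 on rescaled columns, within the limit. The copies of Ahcy, Gm4737 (99.7% identity, 16.4 to 25.7 FPKM) and Gm9826 (99.2%, 4.87 to 7.37 FPKM), leave the same response of -0.60 on the deposited values when summed with it.

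**Figure D5:**
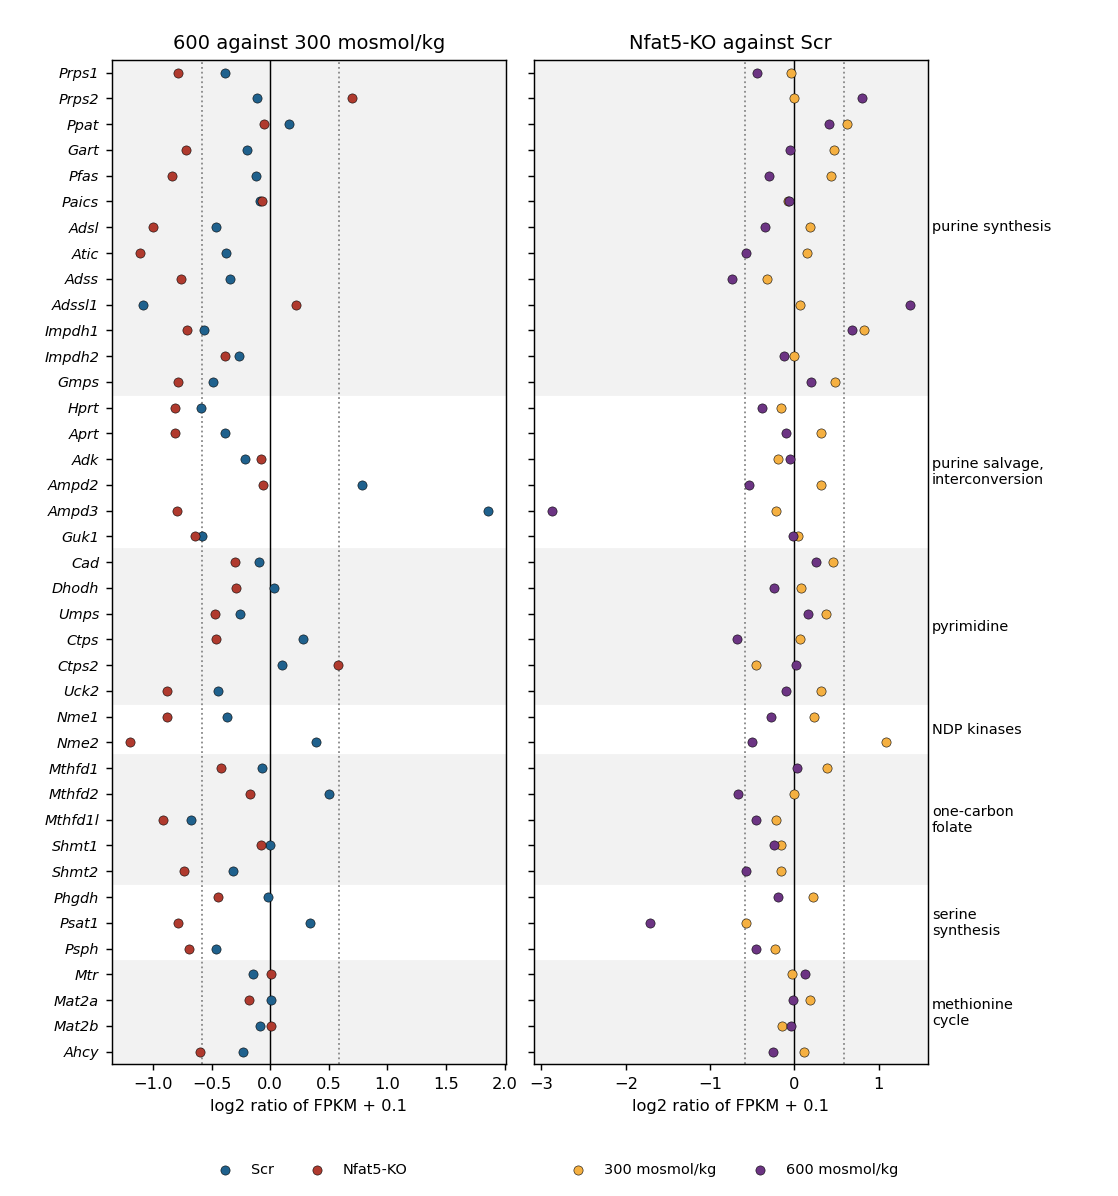
Log2 ratios of FPKM + 0.1 for each of the 39 genes, grouped by pathway branch. The left panel shows 600 against 300 mosmol/kg (blue for Scr, red for Nfat5-KO) and the right panel Nfat5-KO against Scr (orange at 300, purple at 600 mosmol/kg), with dotted lines at the 1.5-fold limits. In the left panel 20 red points lie beyond the lower line, against 3 blue ones, and in the right panel Ampd3 (-2.88) and Psat1 (-1.71) lie farthest below 0.

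The other genes of these pathways, 88 by name, were counted in the same way. In the knockout response, 13 of 61 compared were lower (21.3%, against 13.8% of all genes) and 6 higher (9.84%, against 14.1%), with a median of -0.15. On rescaled columns 7 were lower and 9 higher, beside 7.12% and 24.8% of all genes. In Scr cells, 10 of 62 were lower (16.1%, against 9.01%) and 2 higher (3.23%, against 10.4%). Rescaled, 7 of these 62 were lower and 4 higher, beside 6.49% and 14.4% of all genes. Between genotypes at 300 mosmol/kg, 4 of 61 were lower (6.56%, against 6.21%) and 1 higher (1.64%, against 5.27%). At 600 mosmol/kg, 6 of 63 were lower (9.52%, against 9.44%) and 4 higher (6.35%, against 9.84%), the share of lower genes being close to that of all genes. Rescaling turned this balance round, with 3 of 63 lower and 7 higher, beside 7.25% and 14.7% of all genes. Among the 13 genes of deoxynucleotide metabolism, 4 were lower in the knockout response (30.8%, against 13.8% of all genes, and 3 on rescaled columns), including the deoxycytidylate deaminase Dctd (11.5 FPKM in Nfat5-KO_300 and 4.44 in Nfat5-KO_600) and the ribonucleotide reductase subunit Rrm2b (4.22 and 1.78 FPKM). The glycine cleavage genes went apart, with Gcsh at 26.2 and 10.8 FPKM and Amt at 0.887 and 2.25 FPKM in these groups. The largest ratio belonged to Cbs, which draws homocysteine out of the methionine cycle: it was at 1.46 FPKM in Scr_300, 0.281 in Scr_600, 0.498 in Nfat5-KO_300 and 5.02 in Nfat5-KO_600. Its log2 response was -2.04 in Scr and 3.10 in the knockout. Cth, the next enzyme, was at 1.97 FPKM in Scr_300, 0.719 in Scr_600, 1.0 in Nfat5-KO_300 and 0.61 in Nfat5-KO_600. The log2 response of Cth was -1.34 in Scr and -0.64 in the knockout, where Cbs went the other way.

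Between genotypes at 600 mosmol/kg, several of the remaining pathway genes passed the limit on the deposited values. Higher in the knockout were Ak1 (2.47 against 0.160 FPKM), an adenylate kinase, Tcn2 (4.41 against 0.933 FPKM), the vitamin B12 carrier, and Cda (5.00 against 2.17 FPKM), the cytidine deaminase. Lower in the knockout were Dctd (4.44 against 8.18 FPKM), the glutamine and serine transporter Slc1a5 (5.44 against 9.96 FPKM) and Prpsap2 (4.64 against 7.29 FPKM), which associates with the Prps enzymes. In Scr cells, hypertonic medium went with less Cda (7.70 and 2.17 FPKM at 300 and 600 mosmol/kg) and more Cmpk2 (1.22 and 5.30 FPKM).

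Genes that can move with nucleotide synthesis were set beside these results. None of 12 genes of S phase and none of 7 of mitosis differed 1.5-fold in any of the 4 comparisons. Of all genes, 5.27% to 14.1% were higher and 6.21% to 13.8% lower in these comparisons. In the knockout response the median was -0.26 for the S phase genes and -0.29 for the mitosis genes. The members had -0.60 there and all genes -0.04. In the Scr response the S phase and mitosis medians were -0.13 and -0.30, against -0.20 for the members and -0.04 for all genes. On rescaled columns the knockout response had medians of -0.02 for S phase and -0.05 for mitosis. The members had -0.36 on that scale and all genes 0.20. Myc, a regulator of nucleotide synthesis genes, was at 25.7 FPKM in Scr_300, 20.1 in Scr_600, 30.9 in Nfat5-KO_300 and 18.8 in Nfat5-KO_600. On the deposited values the sum of the 39 members, at 1387, 1283, 1455 and 1036 FPKM, had the same order of groups as Myc. With the columns rescaled to a sum of 1000000, Myc was at 101, 86.6, 123 and 88.7. The sum of the 39 members was then at 5465, 5533, 5796 and 4882, in another order of groups than Myc. Mycn was at 4.23, 11.7, 6.83 and 7.54 FPKM. Of 8 genes of the amino acid response that were compared, 4 were lower in the knockout at 600 mosmol/kg (beside 9.44% of all genes, and 3 on rescaled columns): Chac1 (-1.45), Trib3 (-1.26), Asns (-1.18) and Slc7a11 (-0.66). Atf5 was at 0.24 there. At 300 mosmol/kg, 2 of 8 were lower (25.0%, against 6.21%), Trib3 (-1.25) and Atf5 (-0.82). In the knockout response, 2 of 8 were lower and 2 higher, beside 13.8% and 14.1% of all genes. Asns (-1.42) and Chac1 (-0.65) were lower there, and Sesn2 (0.86) and Atf5 (0.71) higher. On rescaled columns 1 was lower and 2 higher, beside 7.12% and 24.8% of all genes. In the Scr response 0 were lower and 1 was higher (Sesn2 at 0.69), beside 9.01% and 10.4% of all genes. Atf4, the transcription factor of the amino acid response, was at 161, 191, 140.2 and 129 FPKM, highest in Scr_600 and lowest in Nfat5-KO_600 on the deposited values. Among the members, Psat1, Mthfd2, Ctps and Ampd3 had the same highest and lowest groups on that scale, and Phgdh, Shmt2 and Psph did not. The lowest group depends on the scale. Between Nfat5-KO_600 and Nfat5-KO_300, Atf4 had a log2 ratio of -0.12, and rescaling moved the median of all genes by 0.24. On rescaled columns the ratio of Mthfd2 between these groups was 0.07. Asns, the asparagine synthetase, was at 66.3, 44.4, 52.6 and 19.5 FPKM, highest in Scr_300. The part of any of these genes in the results was not tested.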

How the data were processed

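RNA-seq of 12 mpkCCD cultures was analysed from the FPKM values that the authors deposited, which hold 1 value per gene for each of 4 groups. The authors mapped paired-end reads to GRCm38/mm10 with HISAT2, obtained gene counts from HTSeq and scaled them by exon length and mapped reads. The way in which a group's libraries were combined, and the annotation release, are not given in the sources used here. Depth per library is unknown, so that no interval, detection limit or test was calculated. Libraries were prepared from poly-A RNA with a kit that does not mark the strand.

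Of 54839 rows, 2436 held no value and 311 were exact duplicates (among them a second row for Ppat). Symbols with several differing rows (37) were left out, leaving 52015 genes. Groups were taken from the sample labels. Log2 ratios used a pseudocount of 0.1 FPKM, a filter of 0.5 FPKM in 1 of the 2 groups and limits of 1.5-fold and 2-fold. A fit with limma was laid out only in case values per library were found. The ratio step and the 1.5-fold call were checked on Scr_300 values with known changes of at least 2-fold put in. This checks the code only, and does not cover low genes or the spread between libraries. Exons came from GENCODE M21, promoter windows from RefSeq (GRCm38.p6), and near-identical copies from transcripts aligned with minimap2 2.31-r1302. Calculations ran in Python 3.11.15 with pandas 2.3.3 and numpy 2.4.6, and figures were drawn with matplotlib 3.10.9. All 39 members are named. Other pathway genes are named where they differed at least 1.5-fold with 1 FPKM in a group, at most 8 per comparison by size, and a few genes that this rule gives are not reported here. Members, lists and motifs were chosen with earlier results of these data known.

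As alternatives, the pseudocount was set to 1 or 0.01, the filter was dropped or set to a mean of 1 FPKM, and the columns were divided by median-of-ratios factors or rescaled to a sum of 1000000. Further alternatives were a 2-fold limit and, chosen after seeing the data, leaving out Nme2.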

Additional observations from a re-analysis of the deposited data

Results flagged for a closer look

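Ampd3 was the single member that passed the 1.5-fold limit in opposite directions in the 2 genotypes. Its log2 ratio of 600 to 300 mosmol/kg was 1.86 in Scr cells (4.69 and 17.3 FPKM) and -0.80 in Nfat5-KO cells (4.02 and 2.26 FPKM). With 1 value per group this difference was not tested. Rescaling each column to a sum of 1000000 left the Scr response past the limit (2.01), and brought that of the knockout just under it (-0.58).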

How the results depend on the processing

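No paired analysis was possible because the deposited values hold 1 value per group, and for the same reason leaving out each replicate in turn was not run. Of 195 ratios (39 members in 5 comparisons), 193 stayed on their side of the 1.5-fold limit with a pseudocount of 1 and 193 with 0.01, 195 with no filter, 190 with median-of-ratios factors and 174 with columns rescaled to a sum of 1000000. With a mean of at least 1 FPKM, and without Nme2, all 190 remaining ratios did so. No ratio past the limit changed sign under any of these. With a pseudocount of 0.01 or median-of-ratios factors, 2 members in place of 1 were higher in the knockout response, and with those factors 1 in place of 0 was lower in Nfat5-KO_300. With columns rescaled to a sum of 1000000, 3 members in place of 5 were below Scr_600 in Nfat5-KO_600 (median -0.07), 1 in place of 3 was lower in the Scr response (median -0.07), and 7 in place of 20 were lower and 2 in place of 1 higher in the knockout response (median -0.36). The difference of responses then had a median of -0.22. This scale moved the median of all genes by 0.02 (Nfat5-KO_300 against Scr_300), 0.13 (Nfat5-KO_600 against Scr_600), 0.13 (Scr response), 0.24 (knockout response) and 0.11 (difference of responses). At a 2-fold limit, 1 member was higher in Nfat5-KO_300, 1 higher and 2 lower in Nfat5-KO_600 against Scr_600, 1 higher and 1 lower in the Scr response, 0 higher and 2 lower in the knockout response, and 1 higher and 3 lower in the difference of responses. The unknown depth and the missing spread between libraries limit all of these values.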
